A study of Mus musculus with 2 samples.

Results

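The miRNAs described here come from the Rtl1 antisense region of the imprinted Dlk1-Dio3 domain on mouse chromosome 12. They were chosen by name, as 10 mature miRNAs of the hairpins miR-127, miR-136, miR-337, miR-431, miR-433 and miR-434. Of the 677 mouse miRNAs with miRBase names in the table, 9 were members, and each of the 9 had at least 10 counts in the library where it was more abundant. The remaining member, miR-337-3p, was not detected and has no value below.

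The data are small RNA libraries from exosomes, the small vesicles that cells release, shed by cultured pancreatic islets of C57BL/6 mice. One library came from mice on a normal control (chow) diet with 4% fat (NCD) and the other from mice on a high-fat diet with 60% fat (HFD). Both sets of islets were cultured in medium without serum exosomes, and the exosomes were spun out of supernatants collected each day. Age, sex, length of feeding, and the number of mice and islet preparations behind each library are unknown here. With 1 library per diet there is no spread between animals or cultures, so no test was made and every difference lies between these 2 libraries.

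The Dlk1-Dio3 domain is one of the imprinted regions of the genome, where a gene is read from the copy of only one parent. Dlk1, Rtl1 and Dio3 are read from the paternal chromosome, and the long noncoding RNAs Meg3, Rian and Mirg, with a large group of miRNAs, from the maternal chromosome. Rtl1 is a gene derived from a retrotransposon that is needed in the placenta. The miRNAs transcribed against it pair perfectly with its mRNA, and in mouse embryos several of them guide its cleavage. In human islets, miRNAs of this domain have been reported to be less abundant in donors with diabetes.

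The mature sequences show which miRNA each name stands for. They are given 5′ to 3′ from RefSeq (GRCm38.p6), where all 10 members matched by name, with the seed, bases 2 to 8, in capitals. The seed is the stretch that chiefly decides which mRNAs a miRNA pairs with.
mmu-miR-127-5p: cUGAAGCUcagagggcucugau
mmu-miR-127-3p: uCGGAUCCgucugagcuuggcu
mmu-miR-434-5p: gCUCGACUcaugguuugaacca
mmu-miR-434-3p: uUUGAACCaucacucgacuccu
mmu-miR-433-3p: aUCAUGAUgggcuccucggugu
mmu-miR-431-5p: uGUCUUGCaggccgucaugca
mmu-miR-136-5p: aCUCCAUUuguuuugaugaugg
mmu-miR-136-3p: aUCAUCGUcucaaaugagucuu
mmu-miR-337-5p: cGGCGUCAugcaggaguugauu
mmu-miR-337-3p: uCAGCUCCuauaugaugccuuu

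The seeds all differed within the set, and none of the 10 was found in any other mouse mature miRNA of the RefSeq table. They are therefore neighbours in the genome and not a seed family. The longest stretch that 2 members share had 9 bases, found between both arms of miR-434 and between miR-337-5p and miR-431-5p. Against miRNAs of the table outside the set, miR-431-5p shared 10 bases with miR-431-3p, the other arm of its hairpin, and the longest stretch shared with a miRNA of another locus had 9 bases, between miR-434-5p and miR-15b-5p. GC content ran from 36.4% in both arms of miR-136 to 59.1% in miR-127-3p. The letters GGAG, a motif bound by the protein hnRNPA2B1 that has been linked to the loading of miRNAs into exosomes, stood in 1 member, miR-337-5p, and in 14.2% of 1674 distinct mouse mature sequences. CCCU, described with it, stood in 0 members and in 11.4% of those sequences. Mature miRNAs were searched on their own strand alone.

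The place of the hairpins bears out the name of the set for 5 of its 6 hairpins. Rtl1 lies on the minus strand at chr12:109589193-109600330 (GENCODE M21, GRCm38), with its coding region at chr12:109590172-109595403. The hairpins lie on the plus strand. Those of miR-136, miR-434, miR-127, miR-433 and miR-431 overlap the second exon, and all of their mature members fall within the coding region. The reverse complement of each of these 8 members was found as an exact match in the Rtl1 transcript. Transcribed in the direction of Rtl1, the order is miR-136 closest to the start codon, with its 3p arm starting 16 bases after the first base of that codon, then miR-434, miR-127, miR-433 and miR-431. The miR-337 hairpin at chr12:109585789-109585885 lies 3308 bases beyond the annotated end of Rtl1, and neither of its arms matched the transcript, so in this annotation it is a neighbour of the antisense group and not antisense to Rtl1.

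The 2 members that differed by at least 2-fold between the libraries, described below, are arms of the hairpins miR-127 and miR-434. The arm ratio of miR-136 also differed by at least 2-fold, in the other direction from that of miR-127. Drosha and Dicer cut each arm out of the hairpin, and as a rule one arm is kept by Argonaute while the other is lost. The miR-127 and miR-434 hairpins are given with both mature arms in capitals, the 5p arm first. Mir127 lies at chr12:109592846-109592915 and Mir434 at chr12:109594506-109594599, both on the plus strand.
Mir127: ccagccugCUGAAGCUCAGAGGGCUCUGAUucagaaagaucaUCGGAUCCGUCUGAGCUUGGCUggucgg
Mir434: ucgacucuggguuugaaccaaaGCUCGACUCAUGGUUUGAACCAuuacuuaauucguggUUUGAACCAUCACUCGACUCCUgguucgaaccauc
The site opposite miR-127-3p, read 5′ to 3′ along the Rtl1 mRNA from base 2642 of the transcript, is its full complement.
Rtl1 site: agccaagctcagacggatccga

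The NCD library held 2417589 counts and the HFD library 2020831. Values are given as counts and as counts per 1000000 counts of the library (CPM), and an interval in brackets after a level is the exact 95% Poisson interval of the count. Such intervals cover counting error only, since the labels name no molecular identifiers and PCR copies cannot be told from separate molecules. Of the islet endocrine markers, all 9 were present, with a summed level of 88173 CPM in NCD and 91491 CPM in HFD, led by miR-375-3p. Markers of other cells were present too. The summed level of 4 hepatocyte miRNAs was 322086 and 245753 CPM, of 4 acinar miRNAs 99807 and 221096 CPM, of 5 erythroid miRNAs 124691 and 98937 CPM, and of the striated muscle miRNAs, 6 of 7 names present, 445 and 7678 CPM. Of these, miR-133b-3p was at 0 in NCD and had 11 counts in HFD. The hepatocyte sum was nearly all miR-122-5p, at 321158 and 241944 CPM, and the acinar sum nearly all miR-148a-3p, at 99722 and 220847 CPM. The acinar markers miR-216a-5p, miR-216b-5p and miR-217-5p had 8.27, 47.6 and 28.5 CPM in NCD and 17.8, 129 and 102 CPM in HFD. All 5 stromal markers together had 3277 and 3656 CPM, the 5 leukocyte markers 1573 and 2304 CPM and both endothelial markers 6396 and 12750 CPM. Of the neuronal markers 4 of 6 were present, of which miR-128-3p carried nearly the whole of 6608 and 3419 CPM, while miR-124-3p, which defines neurons, had 2 counts in NCD and 1 in HFD.

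The set as a whole took a similar share of both libraries, and that share came mostly from one miRNA. The 9 measured members summed to 14225 NCD counts and 13292 HFD counts, that is 5884 CPM (5788 to 5981) and 6577 CPM (6466 to 6690). The summed level in HFD was 1.12 times that in NCD (counting interval 1.09 to 1.14), a difference that depended on the scaling. The ratio was 1.01 with TMM factors. It was 0.934 with median-of-ratios size factors, which were 1 for each library, so that raw counts of libraries of unequal depth were compared. miR-127-3p alone gave 66.8% of the members' counts in NCD and 65.8% in HFD. The summed acinar, muscle, leukocyte and endothelial markers given above were higher in HFD and the hepatocyte, erythroid and neuronal sums lower, and their part in this result was not tested. Not every member of a list followed its sum. Of 4 hepatocyte markers 3 had log2 ratios above 0, with only miR-122-5p below, and so did 3 of 5 erythroid markers, with miR-486a-5p and miR-486b-5p below. In such pooled vesicles, fewer vesicles from one cell type and less of a miRNA per vesicle cannot be told apart.

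miR-127-3p, which is antisense to the middle of the Rtl1 coding region, was by far the most abundant member. Its counts were 9497 in NCD and 8749 in HFD, at levels of 3928 and 4329 CPM, and it ranked 27 among known miRNAs in each library. Its level in HFD was 1.10 times that in NCD (1.07 to 1.13), and its log2 ratio turned to -0.01 with TMM factors and -0.12 with median-of-ratios size factors. miR-433-3p followed in NCD, with 2576 counts there and 1745 in HFD, or 1066 and 864 CPM, a ratio of 0.810 (0.762 to 0.862). miR-434-3p had 1504 and 1752 counts, or 622 and 867 CPM, a ratio of 1.39 (1.30 to 1.49).

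These 3 abundant 3p arms did not keep the same proportions in both libraries. In NCD there were 1.71 counts of miR-433-3p for each count of miR-434-3p, and in HFD both were level, at 1752 counts of miR-434-3p and 1745 of miR-433-3p. The proportion of miR-434-3p to miR-433-3p was thus 1.72 times as high in HFD (exact conditional interval 1.57 to 1.89). No scaling of a whole library can alter this value, but a correction by sequence can. With a trend with GC content removed, the log2 ratios lay closer together, at 0.37 for miR-434-3p and -0.05 for miR-433-3p, in place of 0.48 and -0.30. Relative to miR-127-3p, miR-433-3p was at 0.735 times (0.687 to 0.787) and miR-434-3p at 1.26 times (1.17 to 1.36) its NCD proportion. All 3 were within 2-fold. Their log2 ratios, computed with 1 CPM added to each level, ran from -0.30 to 0.48, against quartiles of -0.34 and 0.57 over the 91 known miRNAs that reached 1000 counts in a library. The shift between them is beyond counting error, but shifts of this size were common between these 2 libraries.

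**Figure D1:**
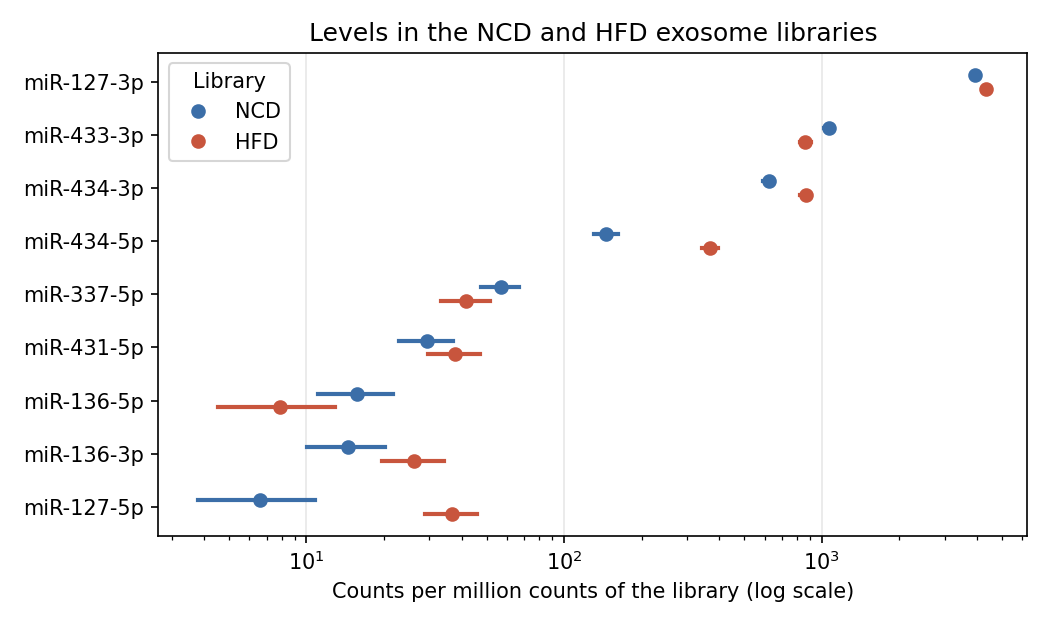
Level of each measured member in CPM (log scale) in the NCD and HFD libraries, with 95% exact Poisson intervals as bars, ordered by the NCD level. Both libraries place miR-127-3p first by a wide margin, and the intervals of the libraries lie far apart for miR-127-5p and miR-434-5p.

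The 2 members past 2-fold, miR-127-5p and miR-434-5p, were the rarer arms of their hairpins. A miRNA was called higher or lower in HFD if its log2 ratio was at least 1 either way and it reached 10 counts in a library, a rule of size and not a test. By that rule 2 of 9 measured members were higher in HFD and 0 lower, where 25.3% of the 387 measured known miRNAs were higher and 9.56% lower. The members' median log2 ratio was 0.35 and that of all measured known miRNAs 0.33. The count and the median of the members thus lay close to those of known miRNAs at large.

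miR-127-5p, the rare partner of miR-127-3p, had 16 NCD counts and 74 HFD counts. Its level went from 6.62 CPM (3.78 to 10.7) to 36.6 CPM (28.8 to 46.0), a ratio of 5.53 (3.19 to 10.2). It ranked 294 among known miRNAs in NCD and 214 in HFD. miR-434-5p had 351 NCD counts and 743 HFD counts, that is 145 CPM (130 to 161) and 368 CPM (342 to 395), a ratio of 2.53 (2.23 to 2.88). For both, the whole counting interval lay beyond 2-fold when scaled by the total count. Both log2 ratios were also past 2-fold under each of 8 alternative scalings, pseudocounts and the removal of a trend with GC content. Of these 8, the deposited TPM equals CPM and so could not differ. The log2 ratio of miR-434-5p was smallest under median-of-ratios scaling, at 1.08. In the authors' deposited table the log2 fold changes of miR-127-5p and miR-434-5p were 2.31 and 1.19. Among 207 known miRNAs that reached 100 counts in a library, as miR-434-5p did, 19.3% were higher and 5.31% lower by the same rule.

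The remaining members lay within 2-fold when scaled by the total count. miR-136-5p had 38 NCD counts and 16 HFD counts, that is 15.7 and 7.92 CPM, a ratio of 0.504 (0.262 to 0.925). It stood at the edge of the rule, with a log2 ratio of -0.91, and was past 2-fold lower under TMM (-1.04), under median-of-ratios scaling (-1.14), with totals without the 5 most abundant miRNAs (-1.05) and with the GC trend removed (-1.37). In the authors' deposited table its log2 fold change was -1.13. Its partner miR-136-3p went the other way, with 35 and 53 counts, or 14.5 and 26.2 CPM, a ratio of 1.81 (1.16 to 2.86).

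miR-431-5p, a miRNA that in mice acts on Pax7 in muscle stem cells, had 71 and 76 counts, or 29.4 and 37.6 CPM, a ratio of 1.28 (0.914 to 1.80) that allows either direction. miR-337-5p, the member outside Rtl1, had 137 and 84 counts, or 56.7 and 41.6 CPM, a ratio of 0.734 (0.552 to 0.969). Further miRNAs of these hairpins that were not among the 10 were rare. miR-431-3p had 10 counts in NCD and 6 in HFD, and miR-432, whose hairpin also overlaps Rtl1, had 5 and 4. Of Mir3071, which lies opposite Mir136 on the other strand, no mature miRNA was detected.

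**Figure D2:**
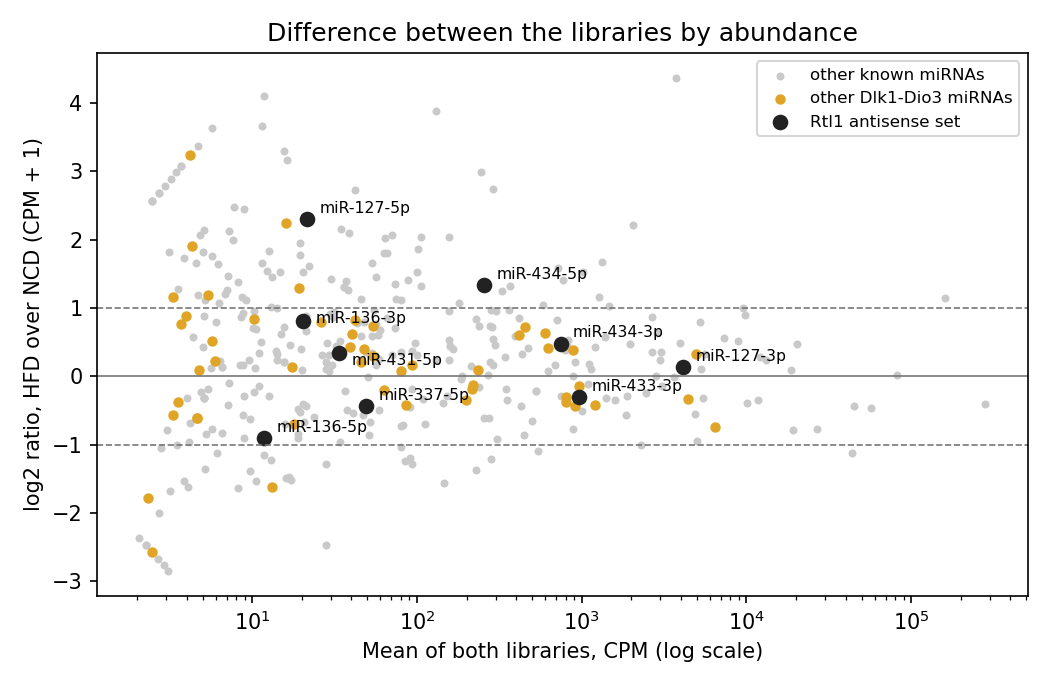
log2 ratio of HFD over NCD (CPM + 1) against the mean level of both libraries in CPM (log scale) for the 387 measured known miRNAs, with the 9 members in black and 50 other measured miRNAs of the Dlk1-Dio3 domain in yellow. Dashed lines mark 2-fold. miR-127-5p and miR-434-5p stand above the upper line, as do other known miRNAs of like abundance. The other 7 members lie between the lines, within the cloud of known miRNAs.

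By level, miR-127-3p, miR-434-5p, miR-337-5p and miR-431-5p held the same places in both libraries. In NCD the order ran miR-127-3p, miR-433-3p, miR-434-3p, miR-434-5p, miR-337-5p, miR-431-5p, miR-136-5p, miR-136-3p and miR-127-5p. Neighbours in this order were separated by their counting intervals except the last 3, where miR-136-3p overlapped both miR-136-5p and miR-127-5p. In HFD the intervals of miR-434-3p and miR-433-3p overlapped. So did those of each neighbouring pair in the run miR-337-5p, miR-431-5p, miR-127-5p and miR-136-3p. Only neighbours were compared, and an overlap of intervals does not show that levels cannot be ordered. miR-136-5p was last and stood apart from miR-136-3p by 3.31 times. All mature members have 21 or 22 bases, so their levels need no correction for length. How evenly different sequences enter a library was not measured here, and the counting intervals do not cover it.

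Summed by hairpin, levels were highest in the middle of the Rtl1 coding region and low at both ends. The miR-127 arms together had 3935 CPM in NCD and 4366 in HFD, the miR-434 arms 767 and 1235 CPM, and miR-433-3p 1066 and 864 CPM. The miR-136 arms, next to the start codon, had 30.2 and 34.1 CPM, close to miR-431-5p near the far end. Within a single exon of Rtl1, the miR-127 arms thus stood over 100 times above the miR-136 arms and miR-431-5p in both libraries. These levels compare different sequences, and a relation of level to position was not tested.

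**Figure D3:**
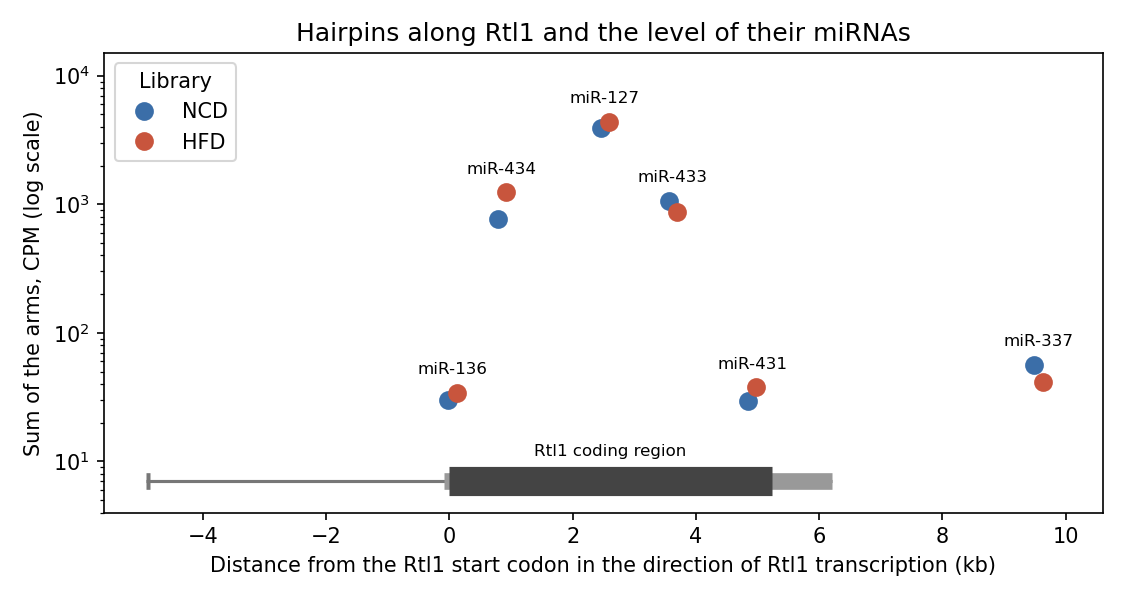
Summed level of the measured members of each hairpin in CPM (log scale) in the NCD and HFD libraries, against the distance of the hairpin from the Rtl1 start codon in kb, with points of the libraries set slightly apart for legibility. The bar at the bottom shows Rtl1, with its coding region in dark grey, untranslated parts of exons in light grey and the intron as a line. miR-127 stands highest, near the middle of the coding region, and miR-337 lies beyond the end of Rtl1.

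The share of each arm can be compared between libraries without any scaling. The 5p arm gave 0.168% of the miR-127 counts in NCD (exact binomial interval 0.0962 to 0.273) and 0.839% in HFD (0.659 to 1.05). The 5p to 3p ratio was thus 5.02 times as high in HFD (exact conditional interval 2.89 to 9.24), although miR-127-3p remained over 99% of the hairpin's counts in each library. For miR-434 the 5p arm gave 18.9% in NCD (17.2 to 20.8) and 29.8% in HFD (28.0 to 31.6), and the 5p to 3p ratio was 1.82 times as high in HFD (1.57 to 2.11).

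miR-136 moved the opposite way. Its 5p arm gave 52.1% of the counts in NCD (40.0 to 63.9) and 23.2% in HFD (13.9 to 34.9), and the 5p to 3p ratio in HFD was 0.278 times that in NCD (0.126 to 0.606). Both arms of miR-136 were about equally abundant in NCD, and the 3p arm led in HFD. miR-431 was mostly 5p, with 87.7% (78.5 to 93.9) and 92.7% (84.8 to 97.3), and its intervals overlap. The more abundant arm therefore differed among neighbours, being 3p for miR-127 and miR-434 and 5p for miR-431.

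These arm shifts have to be read against how often arms shifted elsewhere. Of the 4 hairpins of the set with both arms measured, 2 had a 5p to 3p ratio that differed by at least 2-fold, miR-127 and miR-136. Among all 89 hairpins with both arms measured, 44.9% did so. With the whole conditional interval required to lie beyond 2-fold, 1 of the 4, miR-127, was left, against 19.1% of the 89. The share of the rarer arm was higher in HFD for 2 of the 4 and for 55.1% of the 89. Shifts of arm share were thus common between the 2 libraries and did not run in one direction over the set.

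**Figure D4:**
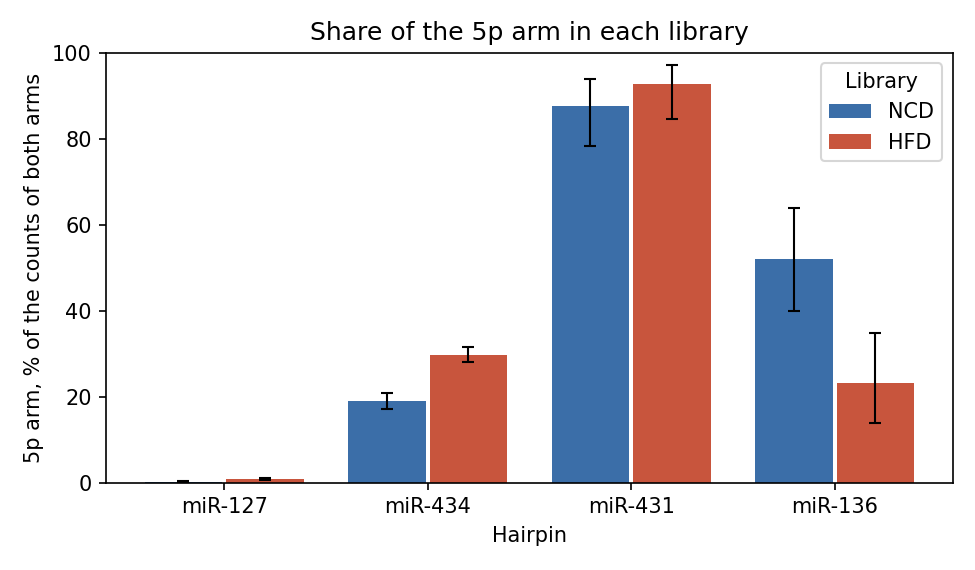
Share of the 5p arm in percent of the counts of both arms for the 4 hairpins with both arms measured, in the NCD and HFD libraries, with exact 95% binomial intervals. The share is higher in HFD for miR-127 and miR-434 and lower for miR-136, and the intervals of miR-431 overlap.

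Other miRNAs of the Dlk1-Dio3 domain gave the nearest comparison, since they are also read from the maternal chromosome. The list of 67 further entries, fixed by name, summed to 64539 NCD counts and 47813 HFD counts, that is 26696 and 23660 CPM. Of the 64 with a RefSeq position, all 64 lay between Dlk1 and Dio3. The list need not be complete for the domain, and it holds miR-431-3p and miR-432, whose hairpins overlap Rtl1. Its summed level in HFD was 0.886 times that in NCD (0.876 to 0.897), a ratio given for scaling by the total count only. Over both libraries its most abundant entry was miR-543-3p, with 19360 and 9722 counts and a ratio of 0.601. Next came miR-541-5p, with 10647 and 11174 counts and a ratio of 1.26. The lower sum was not shared by most of the list, since 30 of its 50 measured entries had log2 ratios above 0. Of the counts of the members and the list together, the members thus took 18.1% in NCD (exact binomial interval 17.8 to 18.3) and 21.8% in HFD (21.4 to 22.1). With miR-543-3p left out of the list the shares were closer, at 23.9% in NCD (23.6 to 24.3) and 25.9% in HFD (25.5 to 26.2). By the rule of size 6 of 50 measured entries of the list were higher and 3 lower, none of them with 100 counts in either library, and the median log2 ratio was 0.19.

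Base composition moved with the ratio across the libraries. The trend was taken over 180 known miRNAs that reached 100 counts and had a RefSeq sequence. The log2 ratio was lower by 0.39 for each 10 percentage points of GC content (Pearson r -0.41). miR-127-5p, which did not reach 100 counts, has 54.5% GC and miR-434-5p 50.0%, both above the median of 47.6%. Whether base composition has a part in their higher HFD levels was not tested. With the linear trend removed their log2 ratios were 2.55 and 1.41 in place of 2.30 and 1.33. miR-127-3p, at 59.1% GC, had 0.57 in place of 0.14, and miR-433-3p -0.05 in place of -0.30. The members with less GC moved down, miR-136-3p to 0.35 from 0.81, miR-136-5p to -1.37 from -0.91 and miR-434-3p to 0.37 from 0.48.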

How the data were processed

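Per the labels' protocols, total RNA of islet exosomes was made into libraries with an NEBNext small RNA kit. The submitters' processing notes name the build GRCm38. How reads were aligned and counted, and which test was run, is unknown here. The deposited table gives, per the file headers, a whole-number count and a TPM for either library, then the p-value, the FDR and the log2 fold change of HFD over NCD. The authors' TPM equals the count divided by the column total, times 1000000, without scaling by length. The deposited p-values were not used, because 1 library per diet gives no measured spread.

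CPM, ratios and exact 95% intervals were computed with Python 3.11.15 and scipy 1.17.1, with a pseudocount of 1 CPM on the log2 scale. The interval of a ratio is Clopper-Pearson, conditional on the sum of both counts. A miRNA was measured if it reached 10 counts in a library. For calls on arm ratios 0.5 counts were added to each arm. The calls and intervals were tried on simulated counts drawn with counting error alone, for well-counted entries with large planted changes. That trial does not cover members with few counts or spread between animals. TMM factors came from edgeR 4.0.16 and median-of-ratios size factors from DESeq2 1.42.0, which gave 1 for each library, so that raw counts were compared. Sequences are RefSeq's and gene positions GENCODE M21's. All 10 members were described. From the domain list the rule named the 2 most abundant entries and those past 2-fold with at least 100 counts, of which there were 0. No miRNA was named for likeness of pattern, since 2 libraries give a single ratio. The members and lists were chosen with earlier results of these data known, and the comparison of arm ratios was added after the data were seen.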

Additional observations from a re-analysis of the deposited data

How the results depend on the processing

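The count of members higher in HFD was 2 under every alternative but the minimum of 100 counts, where 1 remained among 5 members measured, since miR-127-5p has fewer counts. The count of members lower was 1 in place of 0, through miR-136-5p, under TMM, median-of-ratios scaling, totals without the 5 most abundant miRNAs and the GC trend removed. The summed ratio of 1.12 was 1.01 under TMM, 0.934 under median-of-ratios scaling, 1.05 with totals without the 5 most abundant miRNAs and 1.15 without miR-127-3p. For the list of other Dlk1-Dio3 miRNAs, 6 of 50 were higher and 3 lower. These became 1 and 0 of 50 with a pseudocount of 10 CPM and 0 and 0 of 26 with a minimum of 100 counts. The number higher was 10 of 48 with the GC trend removed and 12 of 67 with a minimum of 1 count. With the minimum of 100 counts, 19.3% of 207 known miRNAs were higher and 5.31% lower. For the other alternatives the share over all known miRNAs is not given, so neither these counts nor the members' can be set against it. Hairpins of the set with an arm ratio past 2-fold numbered 1 in place of 2 when the whole interval had to lie beyond it, an alternative chosen after seeing the data. The members' median log2 ratio of 0.35 ran from 0.10 with median-of-ratios scaling to 0.37 with the GC trend removed, and neither called member changed direction under the alternatives run. Relative to the totals, the median log2 shift of known miRNAs with at least 100 counts was -0.15 under TMM and -0.26 under median-of-ratios scaling. No paired analysis was possible because each diet has 1 library. Depth limits the rarer members most, with 16 to 74 counts for miR-127-5p and 16 to 38 for miR-136-5p.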
